A study of Rattus norvegicus with 6 samples.

Results

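The genes described here are 35 genes of cholesterol and lipid synthesis, most of them controlled by the sterol regulatory element binding proteins (SREBPs), together with the genes that sense sterols and that take up, move, store and export cholesterol. They were taken by symbol from a list set by function, though with earlier results of these data known. All 35 were found among the 34156 genes of the table. The cells, which the study names rat fibroblast-like synoviocytes of rheumatoid arthritis (RA-FLS), were wild type and bought as a cell culture. They were profiled by RNA-seq in 2 groups of 3 libraries. The TNF-α group received 10 ng/mL of the inflammatory cytokine TNF-α, and the TNF-α+EMO group received the same dose together with 80 μmol/L of emodin (EMO), a plant anthraquinone, so both groups carried TNF-α, and no untreated or vehicle library was analysed here. The labels give day 5 as the time, whereas the methods of the study give a shorter incubation. The study's methods call the 3 libraries of a group biological replicates, while the labels do not say whether they came from separate cultures, so the p-values measure the spread between these libraries.

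Cholesterol is built from acetyl-CoA through mevalonate and squalene, and a series of sterol intermediates then leads from lanosterol to cholesterol. When membranes of the endoplasmic reticulum are low in sterol, SCAP carries the SREBPs to the Golgi, where proteases release the part that enters the nucleus and raises transcription of the synthetic enzymes, while INSIG proteins hold the complex back when sterol is plentiful. Liver X receptors (LXRs) respond to oxysterols and raise genes of cholesterol export. In a synovial fibroblast the pathway supplies membrane lipid, isoprenoids for protein prenylation and the sterols that feed this control.

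Promoter sequence was taken from RefSeq (assembly GRCr8) for the 28 of the 35 genes that matched by symbol, as windows from 250 bases before to 50 after the annotated start. The motifs searched on both strands were the core of the sterol regulatory element (TCACNCCAC), the E-box (CACGTG), which SREBPs can also bind, and CCAAT, the box of NF-Y, a partner of SREBPs. Fdft1, Fasn, Abcg1, Sqle, Acaca, Pmvk and Stard4 had no window. CCAAT was present in 20 of the 28 genes (71.4%), compared with 39.6% of the 9200 tested genes that had a window. The E-box was present in 4 of the 28 (14.3%; Sc5d, Scap, Insig1 and Abca1) and in 9.95% of the tested genes, and the strict core was present in 0 of the 28 and in 1.18% of the tested genes. No match of one motif overlapped a match of another.

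The windows of Mvk (chr12:47819454-47819753, minus strand) and Nsdhl (chrX:155817110-155817409, plus strand) are shown because they held the most matches, 5 CCAAT boxes each. Insig1 (chr4:8057720-8058019, minus strand), Mylip (chr17:19514422-19514721, minus strand) and Abca1 (chr5:72596424-72596723, minus strand) are shown because they had the highest and the 2 lowest log2 fold changes of the 35 genes, a choice made after their values were seen. Insig1 is annotated on the minus strand in GRCr8 but on the plus strand in Rnor_6.0, the assembly of the counted genes. Each sequence runs 5′ to 3′ on the GRCr8 strand of its gene. Capitals mark the CCAAT boxes, which read ATTGG on the other strand, and the E-boxes.
Mvk: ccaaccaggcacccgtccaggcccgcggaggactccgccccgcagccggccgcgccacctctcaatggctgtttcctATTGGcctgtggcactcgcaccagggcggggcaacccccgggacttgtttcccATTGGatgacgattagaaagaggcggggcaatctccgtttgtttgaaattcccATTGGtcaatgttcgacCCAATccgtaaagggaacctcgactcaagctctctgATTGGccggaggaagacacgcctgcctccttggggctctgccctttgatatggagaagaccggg
Nsdhl: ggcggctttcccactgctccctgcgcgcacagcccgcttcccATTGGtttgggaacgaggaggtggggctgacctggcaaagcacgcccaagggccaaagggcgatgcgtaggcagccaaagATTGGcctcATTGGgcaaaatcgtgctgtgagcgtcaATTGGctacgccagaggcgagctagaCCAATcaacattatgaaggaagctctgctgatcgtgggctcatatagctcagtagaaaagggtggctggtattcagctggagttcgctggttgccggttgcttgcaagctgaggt
Insig1: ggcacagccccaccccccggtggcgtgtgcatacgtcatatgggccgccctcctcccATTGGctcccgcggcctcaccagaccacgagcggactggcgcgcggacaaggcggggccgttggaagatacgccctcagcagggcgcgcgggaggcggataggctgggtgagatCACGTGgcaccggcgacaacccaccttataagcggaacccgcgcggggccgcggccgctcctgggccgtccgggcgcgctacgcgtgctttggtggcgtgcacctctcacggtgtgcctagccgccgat
Mylip: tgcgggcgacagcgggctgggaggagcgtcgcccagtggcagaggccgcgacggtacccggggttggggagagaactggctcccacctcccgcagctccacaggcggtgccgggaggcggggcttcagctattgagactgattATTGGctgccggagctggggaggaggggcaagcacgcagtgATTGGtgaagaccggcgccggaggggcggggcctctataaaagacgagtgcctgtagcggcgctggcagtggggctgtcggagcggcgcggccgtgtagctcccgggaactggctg
Abca1: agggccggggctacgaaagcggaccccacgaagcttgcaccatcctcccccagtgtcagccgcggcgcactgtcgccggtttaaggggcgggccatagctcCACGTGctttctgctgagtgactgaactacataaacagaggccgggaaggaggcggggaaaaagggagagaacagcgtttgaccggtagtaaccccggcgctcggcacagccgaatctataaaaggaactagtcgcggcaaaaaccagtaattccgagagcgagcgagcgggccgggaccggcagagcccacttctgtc

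Counted from the annotated start, with bases before it negative, the CCAAT boxes of Mvk began at -173, -120, -67, -50 and -14, and those of Nsdhl at -208, -128, -119, -91 and -65. Insig1 held a CCAAT box at -193 and an E-box at -79, Mylip held 2 CCAAT boxes at -107 and -66, and Abca1 held an E-box at -149 and no CCAAT box. By the calls given in the next paragraphs, CCAAT was present in 6 of 8 genes that rose, in 9 of 14 that fell and in all 5 genes with a window that did not pass the test. A match is a string of letters in the reference and not evidence of binding.

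**Figure D1:**
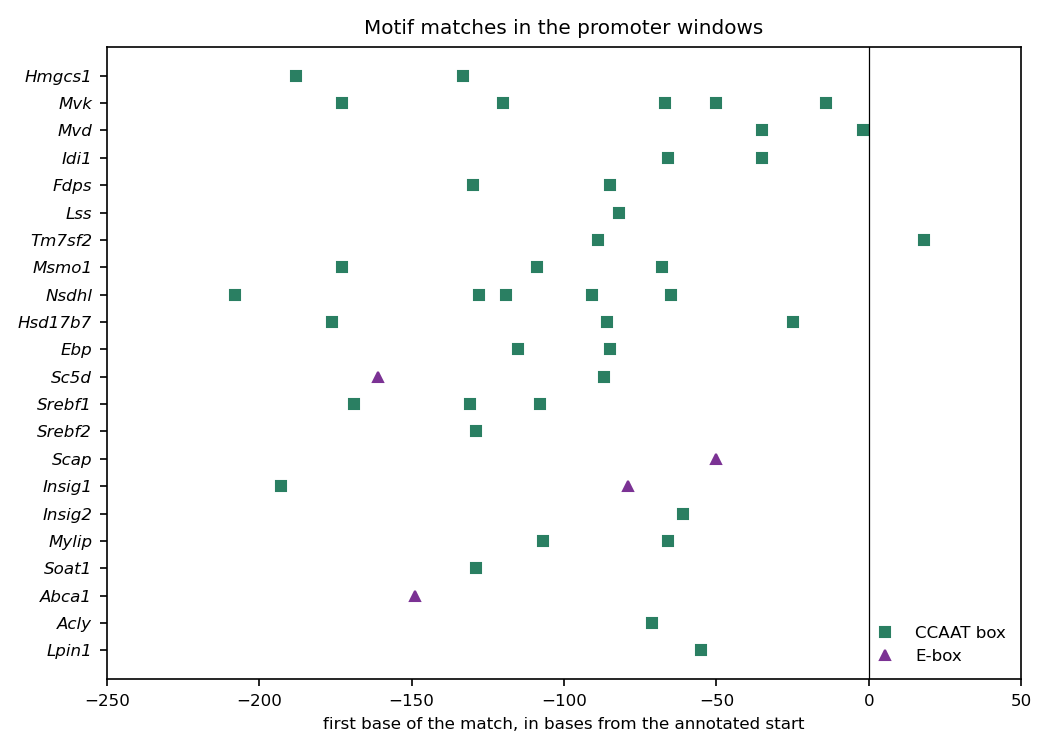
Positions of CCAAT boxes (squares) and E-boxes (triangles) in the promoter windows of the genes with a match, with the distance of the first base of a match from the annotated start on the horizontal axis, in bases. Most matches lie upstream of the start, and Mvk and Nsdhl hold 5 each.

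Libraries held between 16813322 and 17794455 counts assigned to genes, and the TNF-α+EMO libraries had fewer genes with at least 10 counts (12566 to 12662) than the TNF-α libraries (13342 to 13365). Of 13614 genes that passed the filter on low counts, 80.9% differed between the groups at an adjusted p under 0.05 in edgeR's quasi-likelihood test, 39.4% higher and 41.4% lower in TNF-α+EMO, and every count that follows is to be read against that background. The groups did not overlap in 82.9% of these genes. Replicate 3 of the TNF-α+EMO group stood further from its group than the other libraries did, with a chi-square per gene of 15.1 and 23.4 against the other libraries of its group, compared with 6.35 between those and 4.55 to 5.61 within the TNF-α group. Of 13 fibroblast markers in the table, 10 were tested, 9 fell and 1 rose, and their summed normalized counts were 210839 to 231340 in TNF-α and 35297 to 38047 in TNF-α+EMO. The synoviocyte markers Pdpn, Thy1 and Prg4 had at most 7 counts in any TNF-α library and 0 in every TNF-α+EMO library. Their low counts do not bear out the synoviocyte name. Other fibroblast markers of the same list were higher in the TNF-α libraries, with 2893 to 3114 counts for Cdh11 and 21089 to 21517 for Pdgfra. There Pdgfrb had 2951 to 3200 counts and Col3a1 11700 to 12249, while Dcn had at most 4. The markers of the list thus differed in level, and the identity of the cells was not tested. The collagen gene Col1a1 differed by a log2 fold change of -4.91. Of 13 macrophage markers, 9 had at most 3 counts in every TNF-α library and 9 in every TNF-α+EMO library, with Cd163, Marco, C1qa, C1qb and C1qc at 0 throughout, and the summed level was 1203 to 1308 in TNF-α and 747 to 818 in TNF-α+EMO. Of the 3 macrophage markers tested, Cd14 fell (log2 fold change -1.10), which lowered the sum, while Cd68 (0.75) and Itgam (4.78, from at most 1 count to 10 to 14 counts) rose. Summed epithelial markers were 9942 to 10802 in TNF-α and 1968 to 2304 in TNF-α+EMO, carried by Krt8, with Epcam at 0 and Krt18 at 0 or 1 count. Summed chondrocyte markers were 462 to 545 and 6 to 8, carried in TNF-α by Sox9 (log2 fold change -6.85), with Acan at 0. Summed adipocyte markers were 41 to 69 and 6 to 14, with Adipoq at 0 or 1 count, and summed hepatocyte markers were 8 to 12 and 247 to 269. Of the 4 hepatocyte markers, only Serpina1 was tested and carried that sum (7.81 and 253 normalized counts on average), while Alb, Ttr and Apoa1 had at most 6 counts in any library. The part of these shifts in the values below was not tested, and in bulk libraries fewer cells of a type and less RNA per cell cannot be told apart.

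The pathway did not move as one block. Of the 35 genes, 33 passed the filter and were tested, 10 rose (30.3%), 17 fell (51.5%) and 6 did not pass, so that 81.8% were called, close to the 80.9% of all tested genes. The 27 called genes were also those whose libraries did not overlap between groups, compared with 82.9% of all genes. The median log2 fold change was -0.17 for the tested members and -0.01 for all tested genes, and the median absolute log2 fold change was 0.66 and 0.96. A change beyond 1 on the log2 scale was seen upward in Insig1 and Nr1h2 (19.5% of all tested genes) and downward in 10 genes (27.8% of all tested genes). Leaving out replicate 3 of the TNF-α+EMO group gave 10 higher and 16 lower.

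**Figure D2:**
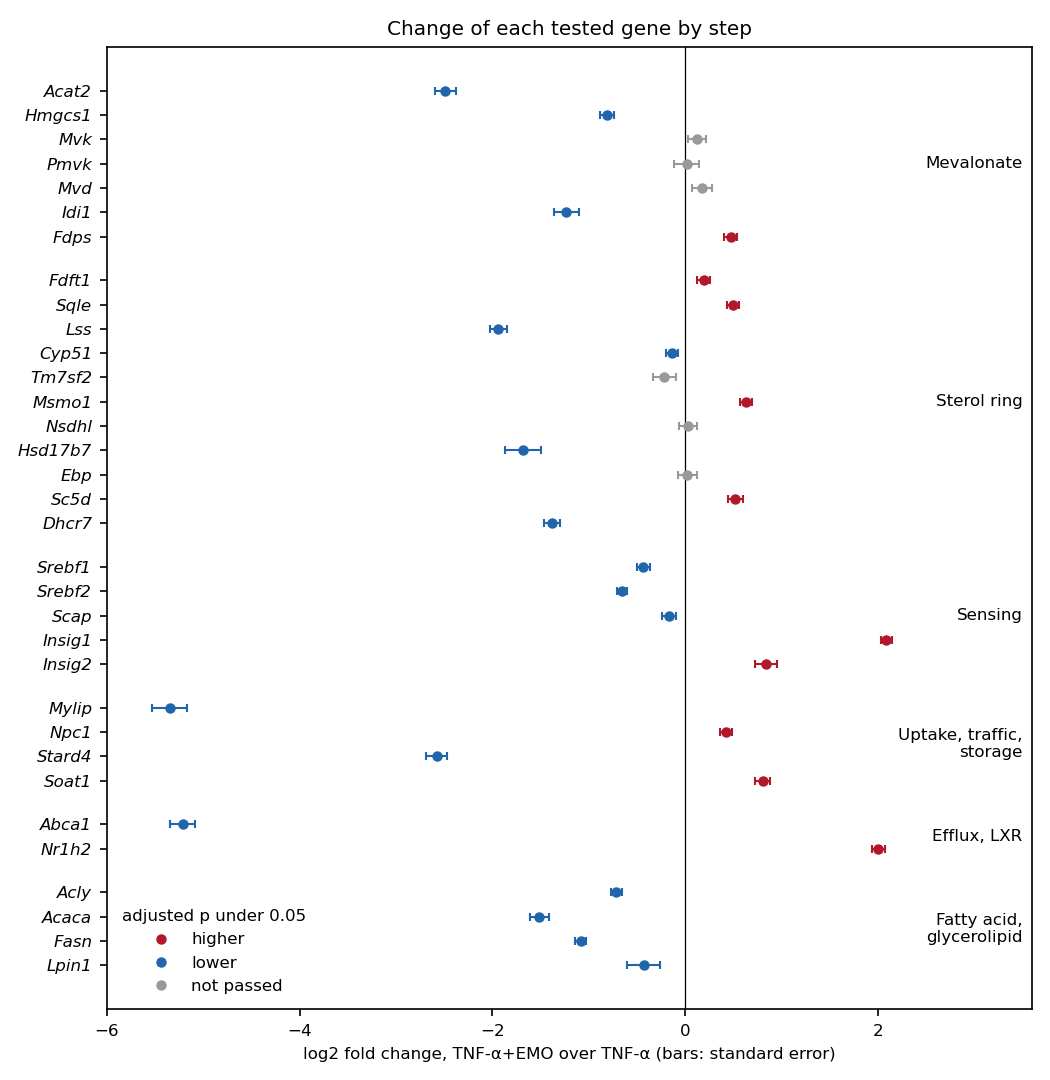
Log2 fold change of the 33 tested genes, TNF-α+EMO over TNF-α, with bars for the standard error, grouped by step and coloured by call at an adjusted p under 0.05. Every step except the fatty acid and glycerolipid genes, where all 4 fell, holds genes on both sides of 0, from -5.35 in Mylip to 2.09 in Insig1.

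In the sensing machinery, both INSIG genes rose, while both SREBP genes and their escort fell. Insig1 (chr4:342302-350515, plus strand, Rnor_6.0 as for all gene coordinates here), which retains the SCAP and SREBP complex in the endoplasmic reticulum, had normalized counts of 3592, 3725 and 3716 with TNF-α alone and of 15847, 16074 and 15028 with EMO added. The groups were far apart, and the rise was 4.26-fold (log2 fold change 2.09, SE 0.06, edgeR adjusted p = 8.47e-11). Insig1 stood among the 746 highest log2 fold changes of the 13614 tested genes. Its paralogue Insig2 (chr13:37266312-37287458), which acts in the same way, had 199.1, 203.8 and 206.5 normalized counts in TNF-α and 337.3, 352.0 and 402.4 in TNF-α+EMO. Its rise was 1.79-fold (log2 fold change 0.84, SE 0.11, adjusted p = 3.06e-05), with no overlap of the groups.

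Srebf2 (chr7:123381077-123438603), the SREBP that mainly serves cholesterol synthesis, had 3851, 3795 and 3943 normalized counts in TNF-α and 2424, 2518 and 2420 in TNF-α+EMO. All TNF-α+EMO libraries lay below all TNF-α libraries, and the log2 fold change was -0.65 (SE 0.06, edgeR adjusted p = 7.89e-07). Srebf1 (chr10:46570996-46593009), whose isoforms mainly serve fatty acid synthesis and were not separated in the table, fell from 2175, 2010 and 2161 to 1514, 1524 and 1663 normalized counts (log2 fold change -0.43, SE 0.07, adjusted p = 0.000101). The escort Scap on chromosome 8 was lower by less, with 2718, 2302 and 2512 normalized counts in TNF-α and 2244, 2221 and 2239 in TNF-α+EMO. Its log2 fold change of -0.17 (SE 0.07, adjusted p = 0.043) was near the threshold. It did not pass with the replicate block (adjusted p = 0.0595) or without TNF-α replicate 1 (0.19), TNF-α replicate 3 (0.0938), TNF-α+EMO replicate 1 (0.0566) or TNF-α+EMO replicate 2 (0.11). Insig1 alone took 5.75 to 5.95% of all counts on the 35 genes in TNF-α and 21.8 to 22.9% in TNF-α+EMO. The 35 genes together held 0.375 to 0.394% of all counts in TNF-α and 0.381 to 0.395% in TNF-α+EMO, and without Insig1 these ranges were 0.354 to 0.371% and 0.298 to 0.306%.

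In the mevalonate section, 1 of 7 genes rose, 3 fell and 3 did not pass. Acat2 (chr1:47972399-47992653, plus strand), the cytosolic acetoacetyl-CoA thiolase that joins acetyl-CoA units, had 1086, 957.6 and 1070 normalized counts in TNF-α and 156.8, 198.5 and 198.6 in TNF-α+EMO. It was 5.62-fold lower with EMO (log2 fold change -2.49, SE 0.11, edgeR adjusted p = 3.37e-09), with no overlap. Hmgcs1 (chr2:52431601-52445055), which makes HMG-CoA, had 1516, 1598 and 1752 normalized counts against 961.3, 870.8 and 941.2 and fell 1.75-fold (log2 fold change -0.81, SE 0.08, adjusted p = 2.04e-06). Idi1 on chromosome 17, the isomerase of the isoprenoid building block, had 379.6, 390.1 and 476.4 normalized counts in TNF-α and 197.0, 174.0 and 158.9 in TNF-α+EMO (log2 fold change -1.23, SE 0.13, adjusted p = 5.17e-06). These 3 genes were lower in every TNF-α+EMO library.

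Fdps on chromosome 2, the farnesyl diphosphate synthase at the branch between sterols and isoprenoids, moved the other way. Its normalized counts were 3216, 3320 and 3704 in TNF-α and 4481, 4833 and 4908 in TNF-α+EMO (log2 fold change 0.47, SE 0.07, edgeR adjusted p = 7.63e-05). The 3 enzymes that phosphorylate and decarboxylate mevalonate did not pass. Mvk had means of 402 ± 32.5 and 439 ± 18.1 normalized counts (SD, n = 3 for both groups; log2 fold change 0.13, SE 0.09). Pmvk had means of 516 ± 34.8 and 521 ± 103 (log2 fold change 0.02, SE 0.13), and Mvd, the decarboxylase, had 480 ± 40.9 and 542 ± 58.8 (log2 fold change 0.18, SE 0.10). The libraries of the groups overlapped in all 3, at adjusted p of 0.229, 0.92 and 0.138.

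Among the 11 enzymes from squalene formation to cholesterol, 4 rose, 4 fell and 3 did not pass, with a median log2 fold change of 0.03. Sqle on chromosome 7, the squalene epoxidase and a control point of the pathway, had 1624, 1729 and 1721 normalized counts in TNF-α and 2439, 2446 and 2255 in TNF-α+EMO (log2 fold change 0.49, SE 0.06, edgeR adjusted p = 2.32e-05). The next enzyme, the cyclase Lss (chr20:12842884-12870497) that makes lanosterol, went from 977.0, 1051 and 1049 to 266.1, 292.7 and 244.5 normalized counts. It fell 3.83-fold (log2 fold change -1.94, SE 0.09, adjusted p = 5.73e-09), so that adjacent steps moved in opposite directions without overlap of the groups in either. Fdft1, the squalene synthase, was higher by a log2 fold change of 0.19 (SE 0.07, adjusted p = 0.0222), with 1289, 1224 and 1403 normalized counts in TNF-α and 1488, 1495 and 1495 in TNF-α+EMO. That call was lost with upper-quartile factors (adjusted p = 0.0684), with library totals alone (0.319) and without TNF-α replicate 1 (0.0789), TNF-α replicate 2 (0.124) or TNF-α+EMO replicate 2 (0.0626).

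After lanosterol, the C4 demethylation and desaturation enzymes differed among themselves. Msmo1 on chromosome 16, the C4-methylsterol oxidase, rose from 1693, 1786 and 1857 to 2902, 2687 and 2669 normalized counts (log2 fold change 0.63, SE 0.06, edgeR adjusted p = 3.89e-06). Sc5d on chromosome 8, the sterol C5-desaturase, rose from 1084, 1167 and 1208 to 1799, 1658 and 1509 (log2 fold change 0.52, SE 0.08, adjusted p = 0.000103). Both groups of libraries were separate in these genes. Hsd17b7 on chromosome 13, the 3-ketosterol reductase that acts in the same demethylation cycle as Msmo1, had 130.5, 138.5 and 146.1 normalized counts against 39.2, 45.0 and 44.8 (log2 fold change -1.68, SE 0.18, adjusted p = 7.05e-06). Nsdhl, the dehydrogenase of that cycle, did not pass, with means of 636 ± 49.96 and 651 ± 54.4 normalized counts (SD, n = 3; log2 fold change 0.03, SE 0.09, adjusted p = 0.751).

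Dhcr7 (chr1:217018916-217034904), the 7-dehydrocholesterol reductase that closes one route to cholesterol, had 1356, 1369 and 1567 normalized counts in TNF-α and 531.2, 560.8 and 559.2 in TNF-α+EMO. The fall was 2.60-fold (log2 fold change -1.38, SE 0.08, edgeR adjusted p = 3.72e-08), and with Sc5d, which makes its substrate, it forms another adjacent pair with opposite directions. Cyp51 on chromosome 4, the lanosterol 14α-demethylase, lay at the edge of the test, with 9331, 9529 and 9685 normalized counts against 8881, 8958 and 8140 (log2 fold change -0.14, SE 0.06, adjusted p = 0.04997). With the replicate block its adjusted p was 0.0866, with no filter on low counts it was 0.0694, and without a single library it was 0.0767, 0.113 and 0.125 (TNF-α replicates 1, 2 and 3) and 0.0659 and 0.0971 (TNF-α+EMO replicates 2 and 3). Ebp, the sterol isomerase, and Tm7sf2, a C14 reductase, did not pass, with log2 fold changes of 0.03 (SE 0.10, adjusted p = 0.824) and -0.22 (SE 0.12, adjusted p = 0.117). The gene span of Tm7sf2 shares 1066 bases on the same strand with that of Vps51, which had 1233 to 4029 counts per library. Exons were not compared, so the counts of Tm7sf2 are uncertain. Tm7sf2 passed as lower without replicate 3 of the TNF-α+EMO group (edgeR adjusted p = 0.00897).

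**Figure D3:**
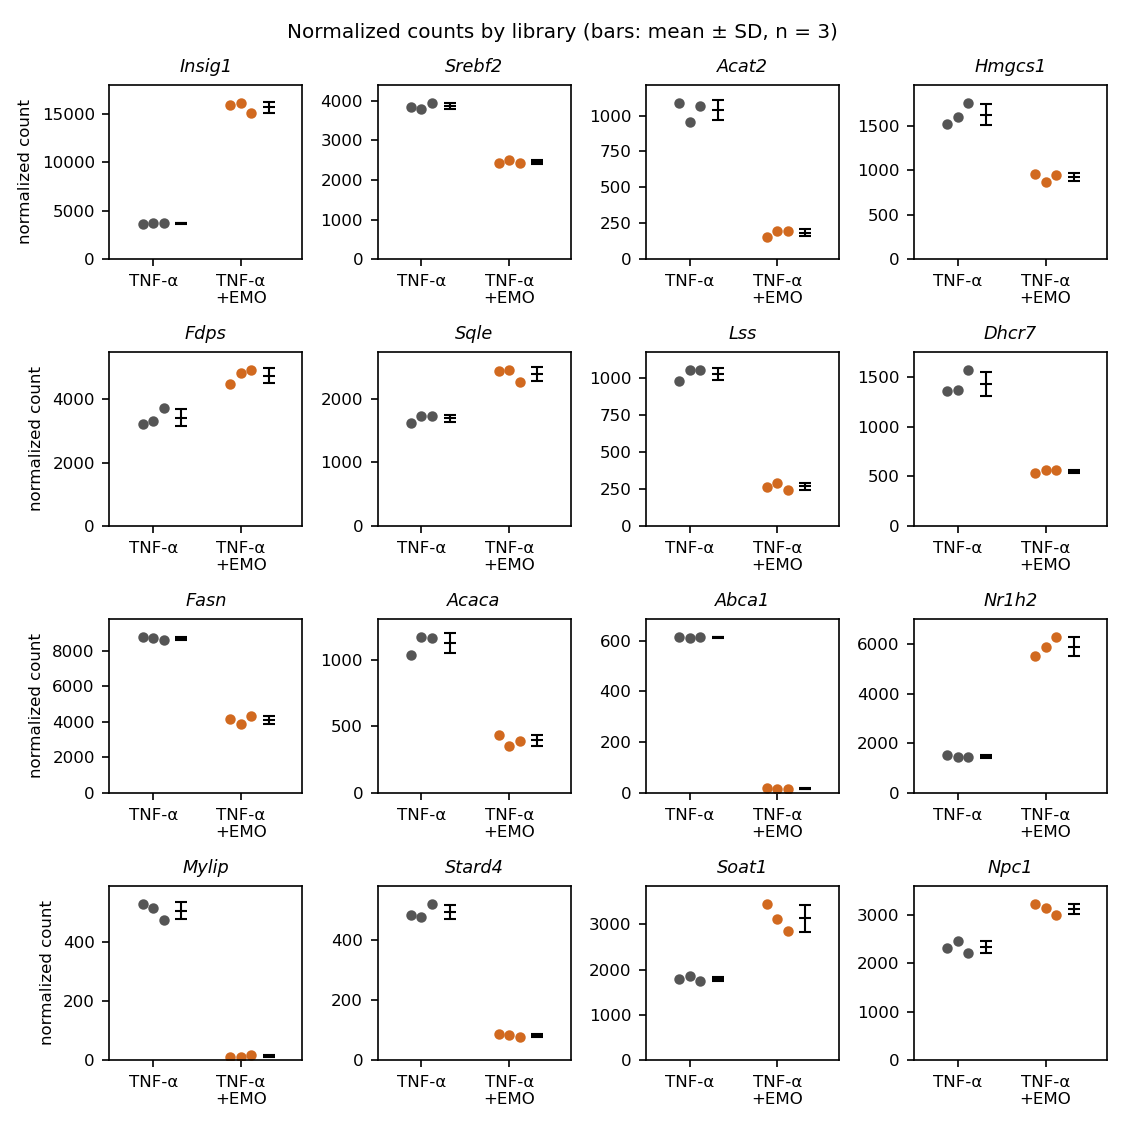
Normalized counts of 16 genes in each library, with the TNF-α libraries in grey, the TNF-α+EMO libraries in orange and bars for the mean ± SD (n = 3), every vertical axis starting at 0. The 16 genes were picked for display and all are called genes, so the lack of overlap in every panel is not a result. Of the 33 tested members 27 did not overlap, as did 82.9% of all tested genes. Insig1, Fdps, Sqle, Nr1h2, Soat1 and Npc1 are higher with EMO and the other genes shown are lower.

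The genes of lipoprotein receptor control, sterol traffic and storage held some of the most negative changes among the 35 genes. Mylip (chr17:19682040-19703681, minus strand), a ubiquitin ligase that sends lipoprotein receptors to degradation and is a target of LXRs, had 526.7, 514.9 and 473.4 normalized counts in TNF-α and 11.3, 9.2 and 16.3 in TNF-α+EMO. It was 40.7-fold lower (log2 fold change -5.35, SE 0.18, edgeR adjusted p = 4.03e-10), among the 540 lowest log2 fold changes of all tested genes. Stard4 (chr18:25984638-25997555), a soluble carrier that moves cholesterol between membranes, had 484.6, 478.8 and 520.2 normalized counts against 87.7, 81.9 and 78.4. Its fall was 5.98-fold (log2 fold change -2.58, SE 0.11, adjusted p = 2.88e-09). In both genes the groups were widely separate.

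Soat1 (chr13:74035080-74077783), which esterifies cholesterol for storage in lipid droplets, rose 1.75-fold, from 1786, 1851 and 1747 to 3448, 3115 and 2844 normalized counts (log2 fold change 0.81, SE 0.08, edgeR adjusted p = 1.96e-06). Npc1 (chr18:3616878-3662683), which exports cholesterol from late endosomes and lysosomes, rose from 2323, 2455 and 2219 to 3222, 3144 and 3004 (log2 fold change 0.42, SE 0.06, adjusted p = 8.22e-05). The transcripts of storage and lysosomal export were thus higher while that of the carrier Stard4 was lower. The gene span of Npc1 shares 406 bases with that of Rmc1 on the other strand (744 to 2252 counts per library). Srebf1 likewise shares 588 with Rai1 (566 to 1270) and Idi1 shares 100 with Wdr37 (368 to 502). Exons were not compared, and the strand setting of the counting is not given in the sources used here. Reads there therefore cannot be assigned with certainty.

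On the efflux side, the exporter and the receptor moved apart. Abca1 (chr5:69857771-69983015, minus strand), which passes cholesterol to apolipoprotein acceptors and is a direct target of LXRs, had 613.0, 612.4 and 613.7 normalized counts in TNF-α and 18.6, 14.3 and 16.3 in TNF-α+EMO. It was 37.1-fold lower (log2 fold change -5.21, SE 0.13, edgeR adjusted p = 5.71e-11), among the 575 lowest log2 fold changes. Nr1h2 (chr1:100554544-100559942), which encodes LXRβ, had 1533, 1436 and 1443 normalized counts against 5526, 5881 and 6285 and rose 4.01-fold (log2 fold change 2.00, SE 0.07, adjusted p = 4.1e-10). The Nr1h2 transcript was higher, and those of Abca1 and Mylip lower, in every TNF-α+EMO library than in any TNF-α library. Nr1h3, which encodes LXRα, had 6, 7 and 7 counts in TNF-α and 9, 5 and 0 in TNF-α+EMO, below the filter on low counts. Abcg1, a second exporter, had 0 counts in all 6 libraries, which allows up to 3 counts per library by counting error alone.

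The 4 genes of fatty acid and glycerolipid synthesis all fell, with a median log2 fold change of -0.90. Acly on chromosome 10, which makes cytosolic acetyl-CoA from citrate, had 6090, 5998 and 6320 normalized counts in TNF-α and 3627, 3781 and 3819 in TNF-α+EMO (log2 fold change -0.71, SE 0.06, edgeR adjusted p = 4.02e-07). Acaca (chr10:71536533-71719910), the acetyl-CoA carboxylase that makes malonyl-CoA, fell from 1038, 1170 and 1166 to 437.3, 355.1 and 391.1 (log2 fold change -1.51, SE 0.10, adjusted p = 7.48e-08). Fasn (chr10:109987735-110005901), the fatty acid synthase that uses it, fell from 8766, 8740 and 8620 to 4139, 3879 and 4319 (log2 fold change -1.08, SE 0.06, adjusted p = 1.94e-08). All 3 consecutive steps were thus lower, with no overlap between libraries of the groups. Lpin1 on chromosome 6, a phosphatidate phosphatase of triglyceride synthesis, had 200.1, 234.0 and 183.1 normalized counts against 166.1, 170.9 and 121.2 (log2 fold change -0.43, SE 0.17, adjusted p = 0.0355), and that call was lost without TNF-α replicate 1 (0.0654), TNF-α replicate 2 (0.145) or TNF-α+EMO replicate 3 (0.0905).

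Levels per gene length, given as the deposited FPKM (fragments scaled to gene length and library size), set the genes beside each other, without a test. In TNF-α, Cyp51 had the highest mean (166), ahead of Insig1 (88.3), Acly (82.5), Fdps (65.9), Msmo1 (55.9), Fasn (55.4) and Soat1 (53.4), and the lowest tested members were Hsd17b7 (2.04) and Abca1 (3.45). In TNF-α+EMO the order was led by Insig1 (373), Nr1h2 (169) and Cyp51 (149.5), followed by Soat1 (92.6), Fdps (90.8) and Msmo1 (85.9), and Abca1 (0.0915) and Mylip (0.231) were lowest. By summed FPKM, the mevalonate genes were at 188 to 212 in TNF-α and 172 to 196 in TNF-α+EMO and the sterol genes at 378 to 402 and 382 to 405, ranges that overlapped. Sums of the sensing genes (203 to 210 against 462 to 482) and of the efflux genes (45.0 to 47.8 against 158 to 180) were higher with EMO, each carried by 1 gene, Insig1 and Nr1h2. Sums of the fatty acid genes were lower (150 to 154 against 81.1 to 83.8). The deposited FPKM were 0.955 to 0.967 times the values recomputed from the counts in TNF-α and 1.02 to 1.05 times in TNF-α+EMO, so they are scaled to a total other than the table's.

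**Figure D4:**
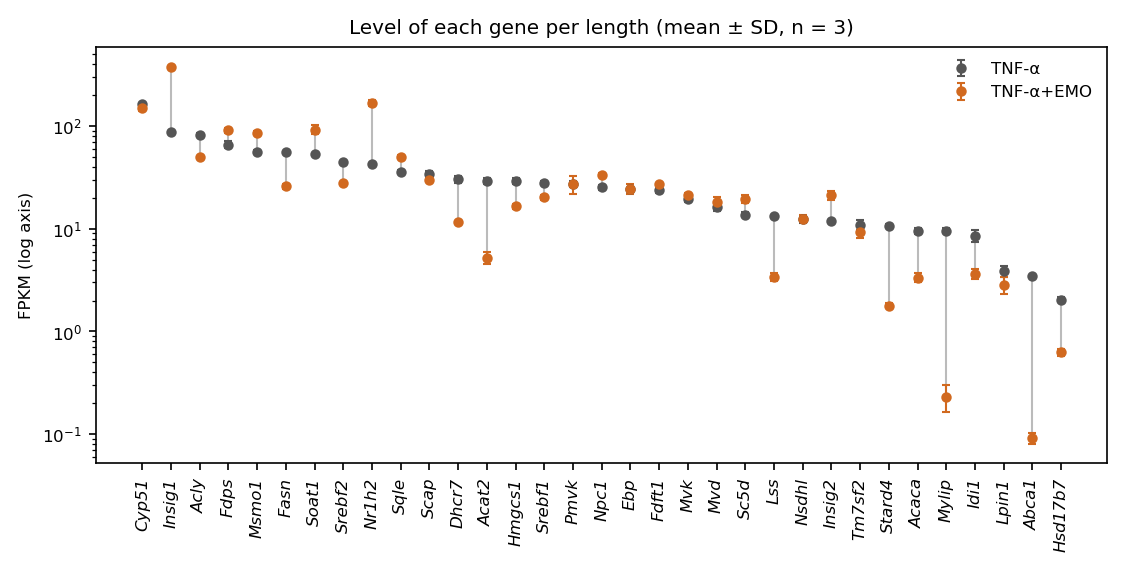
Mean deposited FPKM ± SD (n = 3, log axis) of each gene with a mean above 0.5 in TNF-α, ordered by its level there, with TNF-α in grey and TNF-α+EMO in orange. Insig1 and Nr1h2 move to the top of the order with EMO, while Mylip and Abca1 drop to the bottom.

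Of 98 other genes of the pathway, 95 were in the table and 85 were tested, of which 40 rose, 34 fell and 11 did not pass (87.1% called, against 80.9% of all genes), with a median log2 fold change of 0.02. Among other sterol and isoprenoid genes, 5 rose and 6 fell of 11 tested. Ch25h (chr1:252807065-252808380), which makes the oxysterol 25-hydroxycholesterol, had 1562, 1411 and 1438 normalized counts in TNF-α and 1.0, 2.0 and 7.1 in TNF-α+EMO (log2 fold change -8.70, SE 0.23, edgeR adjusted p = 6.89e-11). Cyp27a1, the sterol 27-hydroxylase, which makes another oxysterol, had means of 168 ± 13.2 and 511 ± 27.4 normalized counts (SD, n = 3; log2 fold change 1.60, SE 0.10). The oxysterol enzymes therefore differed in direction. Dhdds and Ggps1, of dolichol and geranylgeranyl synthesis, were higher by log2 fold changes of 1.37 (SE 0.07) and 1.03 (SE 0.10), and the mitochondrial thiolase Acat1 was lower at -2.42 (SE 0.09).

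Of 24 tested genes of fatty acid and glycerolipid synthesis beyond those above, 13 rose and 10 fell. Dgat2 (chr1:164113459-164143818), which makes triglyceride from diacylglycerol, had 217.8, 164.8 and 162.7 normalized counts in TNF-α and 2681, 2833 and 2855 in TNF-α+EMO (log2 fold change 3.94, SE 0.11, edgeR adjusted p = 8.19e-11). Hilpda, a lipid droplet protein induced by hypoxia, and the phosphatidate phosphatase Lpin3 rose by log2 fold changes of 3.39 (SE 0.09) and 2.28 (SE 0.10). The acetyl-CoA synthetase Acss2 and the desaturase Fads2 fell, at -3.46 (SE 0.11) and -3.17 (SE 0.09).

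Among 18 other sensing genes 9 rose and 4 fell, all by less than 1 on the log2 scale. Rnf145, a ubiquitin ligase of the endoplasmic reticulum, rose by a log2 fold change of 0.90 (SE 0.07), and the AMPK subunit Prkaa2 by 0.81 (SE 0.20). The protease Mbtps1, which makes the first cut in SREBPs, fell (-0.86, SE 0.06), as did Prkaa1 (-0.64, SE 0.10), the other catalytic AMPK subunit, and Paqr3 (-0.40, SE 0.12), a Golgi anchor of SCAP. Among 22 genes of uptake and traffic, 10 rose and 8 fell. The lipoprotein receptors Vldlr and Lrp1 moved apart, Vldlr from 357 ± 30.2 to 3500 ± 308 normalized counts (SD, n = 3; log2 fold change 3.29, SE 0.09) and Lrp1 from 33784 ± 3308 to 3614 ± 77.7 (-3.22, SE 0.08). The oxysterol-binding protein Osbp (2.55, SE 0.07) and Npc2 (1.98, SE 0.07), which hands cholesterol to Npc1, rose, while the lysosomal lipase Lipa (-2.16, SE 0.09) and Cav1 (-5.29, SE 0.08), the coat protein of caveolae, fell.

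In the wider efflux and LXR list, 3 of 10 tested genes rose and 6 fell. The apolipoprotein gene Apoe rose the most, by a log2 fold change of 1.73 (SE 0.37). It was low in both groups, with 6 to 11 counts in TNF-α and 22 to 33 in TNF-α+EMO. The transporter Abca5 and the LXR partner Rxrb rose by log2 fold changes of 1.54 (SE 0.11) and 1.03 (SE 0.16). Rxra, another LXR partner, fell at -2.13 (SE 0.10), from 841, 755 and 756 to 161, 174 and 201 normalized counts, with no overlap. The phospholipid remodelling enzyme Lpcat3 fell at -1.47 (SE 0.06). With 3 libraries against 3, an exact two-sided permutation test of a single gene could not go below p = 0.1, so all calls rest on the spread that edgeR estimates over all genes.

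**Figure D5:**
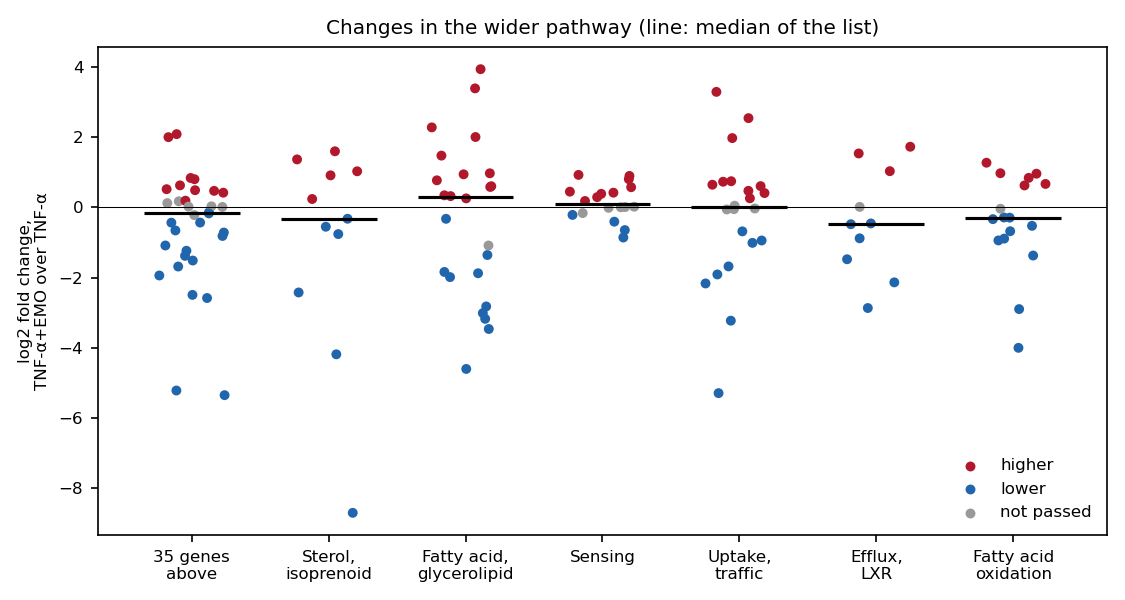
Log2 fold changes of the tested members (first column) and of the tested genes in 6 further lists, each point a gene coloured by call, with a line at the median of the list. Members range from -5.35 to 2.09 around a median of -0.17, and every list holds genes that rose and genes that fell.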

How the data were processed

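Poly(A)-selected libraries of RA-FLS, 3 per group, were sequenced by the study. Per the labels, FastQC, Trimmomatic and HISAT2 were used with the genome Rnor_6.0, and the methods name DESeq for the authors' comparison. The counting program and its strand setting are not given in the sources used here. The authors deposited 1 table of raw counts per gene with gene lengths, FPKM per gene (scaled by them to a total other than the table's) and columns of their own comparison (group means, fold changes on the log2 scale and p-values), which were not used.

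From the deposited counts, a gene was tested where 3 or more libraries held 10 or more counts of it. The main test was edgeR 4.0.16 (R 4.3.3, TMM factors, robust quasi-likelihood F test) of 3 TNF-α+EMO against 3 TNF-α libraries, with Benjamini-Hochberg adjustment over all tested genes and a threshold of 0.05. A normalized count is a count scaled to the TMM library size. Fold changes are TNF-α+EMO over TNF-α. The 35 genes, the other lists and the tests were chosen with earlier results of these data known. Every member was named, and of each other list the 3 highest and 3 lowest called genes. Some genes that this rule names are not reported here. The test was checked on simulated counts in which few genes changed, about equally up and down. Since 80.9% of tested genes were called in these data, that check cannot speak for the scaling or false calls here. The alternatives were DESeq2 1.42.0, RLE and upper-quartile factors, library totals only, no filter on low counts, a filter of 50 counts, a replicate block, and leaving out each library.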

Additional observations from a re-analysis of the deposited data

How the results depend on the processing

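Of the 33 tested members, 25 kept their direction and their side of the threshold under all 13 alternatives, among them 23 of the 27 called. The direction of Pmvk, Nsdhl and Ebp, none of which passed the test, was not stable. With upper-quartile factors their log2 fold changes were -0.028, -0.008 and -0.017, with library totals only -0.10, -0.079 and -0.089, and Pmvk was at -0.004 with at least 50 counts in 3 libraries. Leaving out 1 library at a time, they ran from -0.148 to 0.137, from -0.033 to 0.103 and from -0.065 to 0.10. Library totals only moved the median log2 fold change of all genes to -0.13, from -0.01, and that of the members to -0.28. Counting only changes beyond 1 on the log2 scale left 2659 genes higher, 2 members higher and 10 lower, 14 other pathway genes higher and 21 lower, and 1 fatty acid oxidation gene higher and 3 lower, by construction of the threshold. Over the fits without 1 library, members ran from 9 to 10 higher and from 14 to 16 lower. Deviations of libraries with the same replicate number correlated at 0.01, -0.01 and 0.08, and those with different numbers at -0.085 to 0.08. These values gave no sign of pairing by number but, with 3 libraries per group, cannot exclude it. With the replicate block, 10 members were higher and 15 lower, and 10806 of all genes were called. Scap and Cyp51 lost their calls there, Fdft1, Lpin1, Scap and Cyp51 lost theirs in some fits without 1 library, and Tm7sf2 passed as lower with library totals only (adjusted p = 0.0216) and without replicate 3 of the TNF-α+EMO group (adjusted p = 0.00897, edgeR).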

Other observations

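Genes of fatty acid oxidation, the route opposite to synthesis, also moved in both directions. Of 19 genes in the list, 17 were tested, of which 6 rose, 10 fell and 1 did not pass. This made 94.1% called, against 80.9% of all tested genes, with a median log2 fold change of -0.29. Cpt1a acts in the entry of long-chain fatty acids into mitochondria. It had 3549, 3680 and 3342 normalized counts with TNF-α and 503.3, 442.1 and 475.7 with TNF-α+EMO (log2 fold change -2.89, SE 0.07, edgeR adjusted p = 5.42e-11). Its muscle form Cpt1b was low in both groups and rose from 57.9, 64.4 and 61.4 to 84.6, 133.0 and 140.6 normalized counts (log2 fold change 0.96, SE 0.23, adjusted p = 0.00235). Hadh, the short-chain hydroxyacyl-CoA dehydrogenase of the oxidation cycle, fell from 594.4, 595.8 and 633.2 to 48.5, 32.7 and 32.6 (log2 fold change -4.00, SE 0.15, adjusted p = 9.86e-10), and the isomerase Eci1 fell by a log2 fold change of -1.37 (SE 0.09).

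Acadl, the long-chain acyl-CoA dehydrogenase, rose from 2102, 2330 and 2151 to 5472, 5379 and 5079 normalized counts (log2 fold change 1.27, SE 0.06, edgeR adjusted p = 9.18e-09). Hadhb, a subunit of the mitochondrial trifunctional protein, rose from 2421, 2431 and 2576 to 5084, 5079 and 4442 (log2 fold change 0.98, SE 0.07, adjusted p = 1.7e-07). The groups did not overlap in any of these 6 genes.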
